A study of Mus musculus with 6 samples.

Results

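The proteasome family was followed through colon and liver of mice with colitis, as 49 genes whose symbol starts with Psm, a letter from a to g and a digit, and that had a probe set annotated to a single gene symbol. They were read by 103 of the 45101 probe sets of an Affymetrix mouse genome array, which holds 18194 genes with a probe set of that kind. The mice were male C57BL6/J, 7 weeks old on arrival, in 3 groups. The DSSPAR group ate a basal diet with 2% parsley (PAR) throughout and drank 1.5% (w/v) dextran sodium sulphate (DSS), a polymer that injures the colonic epithelium, for 9 days after 7 days of plain water. The DSS group ate the basal diet and drank 1.5% DSS for 10 days after 7 days of plain water. The CON group ate the basal diet and drank plain water. The treatment protocols thus differ by 1 day of DSS between DSSPAR and DSS, and that day cannot be told apart from the diet. RNA of 7 mice per group was pooled, so each group and tissue is 1 array of 1 pool, 6 arrays in all. No difference below has a replicate check, none was tested, and no p-value is given.

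The proteasome is the main protease of cytosol and nucleus and degrades proteins tagged with ubiquitin. Its 20S core is a barrel of alpha rings, which gate the entry, and beta rings, in which Psmb5, Psmb6 and Psmb7 carry the active sites. Interferon-gamma induces other catalytic subunits, Psmb8, Psmb9 and Psmb10, which replace Psmb5, Psmb6 and Psmb7 in newly assembled particles to form the immunoproteasome, and also the PA28 activator made of Psme1 and Psme2. The immunoproteasome is the standing form in many leukocytes and trims proteins to peptides suited to MHC class I. The 19S regulatory particle, with ATPase (Psmc) and non-ATPase (Psmd) subunits, binds ubiquitinated proteins and unfolds them. The rule named 5 interferon-induced genes. Psme2 had no probe set of its own, since the probe set annotated to it is also annotated to Psme2b, so 4 were measured. They were set against 31 constitutive subunits, made of 3 catalytic beta, 4 other beta, 7 alpha, 6 ATPase and 11 non-ATPase subunits. The other 14 members are assembly chaperones, other activators, an inhibitor, tissue-restricted subunits and partner proteins.

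Promoter windows of 5 members, chosen with the colon results in view, are printed here. Psmb8 and Psmb9 lay furthest above CON in colon, and Psme1 belongs to the same interferon-induced set. Psmb5 and Psmb6 are the constitutive counterparts of Psmb8 and Psmb9. Each window runs from 250 bases before to 50 bases after the RefSeq start site in GRCm38.p6, 5′ to 3′ on the gene's strand. Capitals mark matches, on either strand, to the interferon-stimulated response element (GAAA, 2 bases of any kind, GAAA), the gamma-activated site (TTCNNNGAA), the NF-kappaB consensus and the antioxidant response element (TGACNNNGC).
Psmb8, chr17:34197945-34198244, plus strand: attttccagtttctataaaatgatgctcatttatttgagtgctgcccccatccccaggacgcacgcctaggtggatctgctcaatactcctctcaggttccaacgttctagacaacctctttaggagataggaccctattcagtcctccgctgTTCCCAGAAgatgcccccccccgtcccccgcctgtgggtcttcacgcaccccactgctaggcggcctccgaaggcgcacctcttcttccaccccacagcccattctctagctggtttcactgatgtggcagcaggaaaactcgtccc
Psmb9, chr17:34187281-34187580, minus strand: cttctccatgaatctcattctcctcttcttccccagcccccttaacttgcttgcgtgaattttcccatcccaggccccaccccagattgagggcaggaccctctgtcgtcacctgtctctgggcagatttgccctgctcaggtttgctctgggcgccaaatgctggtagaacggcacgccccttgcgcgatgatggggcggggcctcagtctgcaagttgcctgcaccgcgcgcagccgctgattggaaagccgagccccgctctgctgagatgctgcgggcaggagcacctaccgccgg
Psme1, chr14:55578244-55578543, plus strand: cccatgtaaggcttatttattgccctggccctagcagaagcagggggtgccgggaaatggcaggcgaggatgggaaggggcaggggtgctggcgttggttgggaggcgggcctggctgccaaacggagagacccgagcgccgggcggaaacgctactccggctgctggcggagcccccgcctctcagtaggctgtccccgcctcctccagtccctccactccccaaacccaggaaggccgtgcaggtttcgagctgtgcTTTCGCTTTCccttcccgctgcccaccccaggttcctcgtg
Psmb5, chr14:54617946-54618245, minus strand: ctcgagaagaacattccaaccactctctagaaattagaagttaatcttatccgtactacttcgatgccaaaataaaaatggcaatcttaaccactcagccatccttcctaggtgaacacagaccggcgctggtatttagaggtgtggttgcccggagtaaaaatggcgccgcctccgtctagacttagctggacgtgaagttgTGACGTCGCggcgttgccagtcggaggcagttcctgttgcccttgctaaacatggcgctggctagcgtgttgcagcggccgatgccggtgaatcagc
Psmb6, chr11:70525107-70525406, plus strand: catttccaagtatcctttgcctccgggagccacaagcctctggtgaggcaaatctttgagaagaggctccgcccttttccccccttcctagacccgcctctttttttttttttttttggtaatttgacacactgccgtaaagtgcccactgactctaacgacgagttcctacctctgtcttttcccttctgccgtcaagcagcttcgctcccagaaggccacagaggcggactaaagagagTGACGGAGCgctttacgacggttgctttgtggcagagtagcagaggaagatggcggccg
With the start site counted as 0, the Psmb8 window held a gamma-activated site match at positions -97 to -89 and the Psme1 window an interferon-stimulated response element match at positions 9 to 18. The windows of Psmb5 and Psmb6 each held an antioxidant response element match, at -47 to -39 and at -9 to -1. None of these 4 motifs was found in the Psmb9 window, which shares 275 of its 300 bases with the window of Tap1, a peptide transporter gene read from the opposite strand. Among 32851 promoter windows of the same length, the interferon-stimulated response element letters occurred in 3.44%, the gamma-activated site in 8.30%, the NF-kappaB consensus in 8.46% and the antioxidant response element in 12.4%. Of the 25 constitutive subunits with a window these were in 2, 1, 5 and 4 genes, and of the 4 interferon-induced genes in 1, 1, 0 and 0. A CCAAT box, searched on both strands and not capitalised here, was in 37.4% of all windows, in 10 of the 25 constitutive genes and, of the interferon-induced genes, in Psmb9. These matches describe letters and do not show binding. In all 41 of 49 members had a window, and Psma8, Psmb1, Psmb2, Psmb7, Psmc3, Psmd3, Psmd7 and Psmg2 had none in the table used.

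Values are MAS5 intensities as deposited, on a linear scale. The tissues were scaled apart, and levels are not compared between tissues or between genes. A floor was set at the median of a tissue's 3 arrays, 25.1 in colon and 96.6 in liver, and values under it were raised to it. Where a gene had several probe sets, the brightest stands for it. The log2 ratios of a gene's 2 brightest probe sets differed with a robust SD of 0.36 to 0.42 in colon and 0.48 to 0.57 in liver over all genes, depending on the comparison, and differences below that size are within this spread. All 13 colon epithelial markers on the array lay above the floor in every colon array, and all 8 hepatocyte markers did so in every liver array. In colon the ratio of 3′ to 5′ probe sets of Gapdh was 0.753 in DSSPAR, 0.696 in DSS and 0.850 in CON, and that of beta-actin 1.69, 1.30 and 1.61. The 3′ control probe set of 18S ribosomal RNA read 254 in DSSPAR, 1154 in DSS and 2384 in CON in colon, and the part of this in the colon ratios was not tested.

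In colon, proteasome genes were higher in both DSS-treated groups than in CON, and Psmb8 and Psmb9 were higher by more than the rest. Psmb8, the inducible counterpart of Psmb5, had an intensity of 601 in DSSPAR, 785 in DSS and 218 in CON. It was 3.61-fold higher in DSS than in CON and 2.76-fold higher in DSSPAR than in CON. Psmb9, the counterpart of Psmb6, had 427 in DSSPAR, 466 in DSS and 149 in CON, which is 3.14-fold higher in DSS and 2.87-fold higher in DSSPAR than in CON. Both colitis arrays thus stood well above the CON array for these genes, with DSSPAR slightly under DSS. The DSS over CON ratio of Psmb8 exceeded that of 98.8% of the genes measured, and that of Psmb9 exceeded 98.4%.

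The other interferon-induced members differed less. Psmb10, the counterpart of Psmb7, had 1353 in DSSPAR, 1188 in DSS and 655 in CON, 1.81-fold higher in DSS and 2.06-fold higher in DSSPAR than in CON. Psme1, which encodes PA28 alpha, had 1511 in DSSPAR, 1498 in DSS and 884 in CON, 1.69-fold higher in DSS and 1.71-fold higher in DSSPAR than in CON. These values lay near those of constitutive subunits: Psmb7 was 1.82-fold higher in DSS than in CON, Psmd14, the deubiquitinase of the 19S lid, also 1.82-fold, and the lid subunit Psmd7 2.00-fold. The interferon-induced set was therefore not uniform, since Psmb8 and Psmb9 alone lay above every constitutive subunit in DSS against CON. Against CON, DSSPAR put all 4 above the highest constitutive subunit, but Psme1 (log2 ratio 0.773) and Psmb6 (0.773) were the same to that precision.

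**Figure D1:**
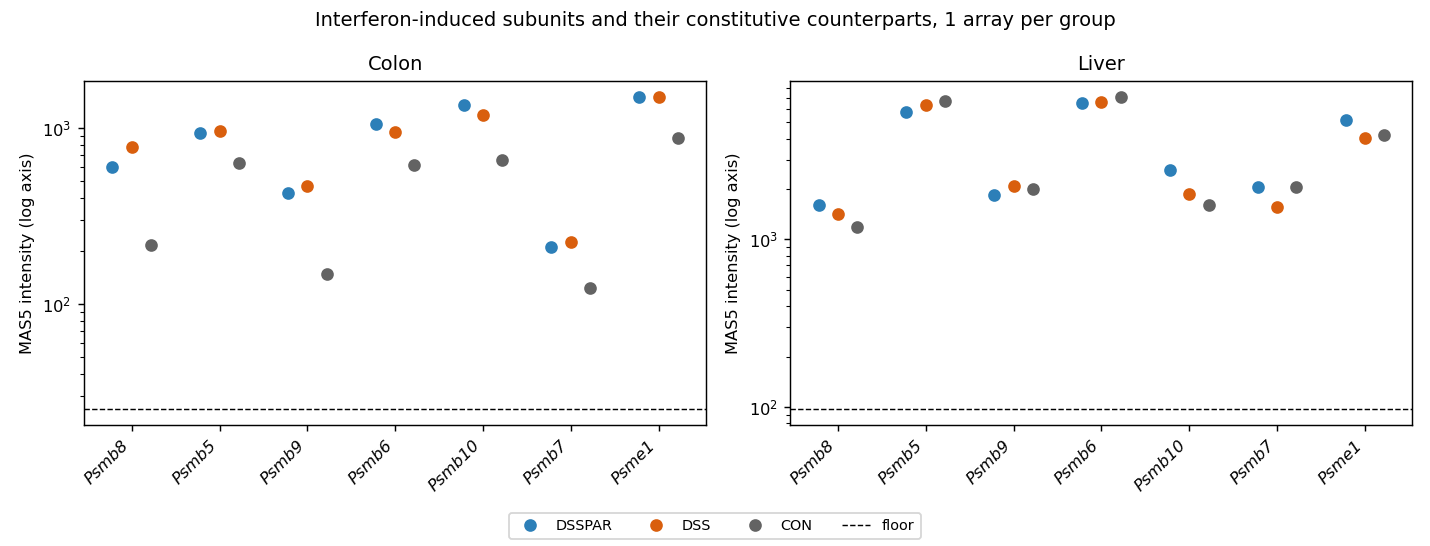
MAS5 intensity (log axis) of the 4 interferon-induced members and of the constitutive counterparts of the catalytic ones, in colon (left) and liver (right), 1 point per array, with the floor as a dashed line. In colon the DSSPAR and DSS points of every gene shown lie above the CON point, by most for Psmb8 and Psmb9, and in liver the DSSPAR and DSS points lie on either side of CON depending on the gene, with Psmb10 furthest above it in DSSPAR. The vertical distance between genes has no meaning.

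Set against their own counterparts, the catalytic subunits split in colon. For DSS against CON, the fold of Psmb8 was 2.39 times that of Psmb5, and the fold of Psmb9 was 2.03 times that of Psmb6. The fold of Psmb10 was 0.996 times that of Psmb7, so this pair kept its proportion. DSSPAR against CON gave ratios of 1.87 for Psmb8 over Psmb5, 1.68 for Psmb9 over Psmb6 and 1.21 for Psmb10 over Psmb7. Between DSSPAR and DSS the ratios were 0.784, 0.829 and 1.22 in the same order of pairs, all within the spread between probe sets. For Psmb8 a second, much dimmer probe set read 59.5 in DSSPAR, 39.6 in DSS and 22.3 in CON, the last value under the floor. It shared the direction against CON but put DSSPAR above DSS, so the order of DSSPAR and DSS for Psmb8 is not settled by these probe sets.

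Of the 4 interferon-induced members, 2 were at least 2-fold higher in the DSS colon than in CON, where 5.18% of 11952 genes were. Of the 31 constitutive subunits, 1 (Psmd7) was at least 2-fold higher and 0 were 2-fold lower, where 1.97% of genes were. The constitutive shift was broad and small. In 30 of 31 constitutive subunits the DSS array was higher than CON, where 54.1% of all genes were higher and 45.9% lower. At least 1.5-fold higher were 10 of them and 0 were lower by that much, where 12.8% of all genes were higher and 7.75% lower. The median log2 ratio was 1.25 for the 4 interferon-induced members, 0.50 for the constitutive subunits and 0.04 for all genes, and the ratios of the constitutive subunits had an SD of 0.25. The difference between the 2 medians was 0.75, and all 4 interferon-induced members lay above the constitutive median. Without probe sets of shared type, which leaves 3 interferon-induced and 26 constitutive genes and removes Psmb8, it was 0.32. In that setting 22 of the 26 constitutive genes were higher in DSS than in CON.

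By role, all 3 constitutive catalytic subunits were higher in the DSS colon than in CON, Psmb5 1.51-fold (961 in DSS against 636 in CON), Psmb6 1.55-fold (953 against 616) and Psmb7 1.82-fold (226 against 124). The 7 alpha ring subunits were all higher, with a median of 1.50-fold, Psma7 being highest at 1.67-fold and Psma5 lowest at 1.19-fold. The 4 other beta subunits ranged between 1.06-fold for Psmb4 and 1.67-fold for Psmb2. By the brightest probe sets, every subunit of the core particle rings thus lay above CON, Psmb4 by less than the spread between probe sets. Of the 6 ATPases, which unfold the substrate, 5 were higher and Psmc4 was 1.17-fold lower, with a median of 1.29-fold. The 11 non-ATPase subunits were all higher (median 1.42-fold), among them Psmd2, a scaffold of the 19S base, at 1.42-fold and Psmd4, a ubiquitin receptor, at 1.39-fold. Of all genes 54.1% were higher in this comparison, beside each of these counts by role. Probe sets of a gene did not always share the size or the direction of the shift. For Psmb1 the brightest gave a log2 ratio of 0.30 and 2 much dimmer ones -0.77 and -0.27, so its direction rests on the brightest. For Psmb3 the brightest probe set gave a log2 ratio of 0.31 and another 1.12, for Psmc2 0.27 and 1.05, and for Psmc4 -0.23 and 0.56, so Psmc4 has no settled direction. Of 16 constitutive subunits with 2 probe sets above the floor in all colon arrays, 14 had both on the same side of CON.

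DSSPAR against CON gave nearly the same picture of the constitutive set in colon. Of 31 constitutive subunits 30 were higher in DSSPAR (52.6% of 11808 genes were, and 47.4% were lower), with a median log2 ratio of 0.50 against 0.03 for all genes. None was at least 2-fold higher or lower, while 3 of the 4 interferon-induced members were at least 2-fold higher (3.51% of all genes were, and 2.1% were lower). At least 1.5-fold higher were 10 constitutive subunits and 0 were lower by that much, where 11.3% of all genes were higher and 8.37% lower. The exception below CON was Psmd3, a lid subunit, with 214 in DSSPAR against 262 in CON. Without probe sets of shared type, 21 of 26 constitutive genes were higher in DSSPAR than in CON. In 29 of 31 constitutive subunits CON was the lowest of the 3 colon arrays, where this held for 41.4% of 12091 genes. As DSS against CON and DSSPAR against CON share the CON array, a low or high CON value moves both the same way.

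**Figure D2:**
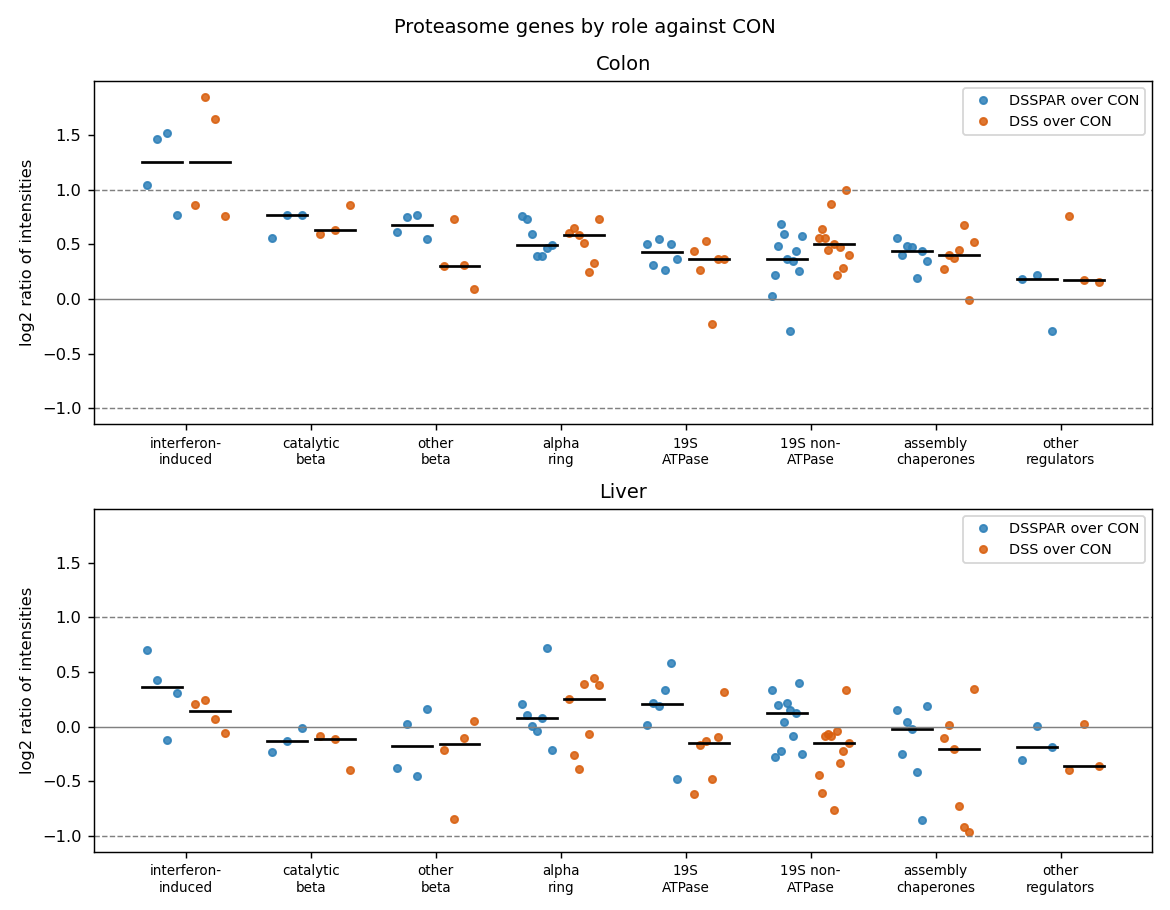
Log2 ratio of intensities against CON for each measured member, by role, in colon (top) and liver (bottom), with DSSPAR over CON left of DSS over CON, black bars at group medians and dashed lines at 2-fold. In colon nearly all points lie above 0 and Psmb8, Psmb9 and, in DSSPAR, Psmb10 pass 2-fold, with Psmd7 on the line in DSS at 2.00-fold, whereas in liver the points scatter around 0.

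Between DSSPAR and DSS in colon the family was nearly level, with differences among its parts. None of 31 constitutive subunits and none of the 4 interferon-induced members was at least 2-fold higher or lower, where 0.392% of 11730 genes were higher and 1.24% were lower. The median log2 ratio was 0.02 for constitutive subunits, -0.06 for interferon-induced members and -0.01 for all genes. Among the constitutive subunits, lid and base subunits of the 19S particle held the lowest values. Psmd7 had 334 in DSSPAR and 561 in DSS, 1.68-fold lower, which left it near the 280 of CON. Psmd1, a base scaffold, had 564 in DSSPAR and 812 in DSS (1.44-fold lower), against 552 in CON. Psmd3 was 1.43-fold lower and Psmd11, a lid subunit, 1.34-fold lower in DSSPAR than in DSS. For the brightest probe sets of Psmd1, Psmd7 and Psmd11 the DSSPAR array thus read closer to CON than to DSS. These genes were named for their low ratio of DSSPAR to DSS. The DSS array is shared by both comparisons, so a high value there raises DSS over CON and lowers DSSPAR over DSS together. Another Psmd11 probe set read 374 in DSSPAR, 421 in DSS and 299 in CON, closer to DSS. A further one had DSS (329) below CON (351). A second, dimmer Psmd7 probe set gave a log2 ratio of -0.39. Of 11 non-ATPase subunits 8 were lower in DSSPAR than in DSS (51.7% of all genes were), though this became 5 of 11 with arrays centred on their medians. That centring raised the median log2 ratio of all genes to 0.18. Under each of the settings tried, Psmd1, Psmd3, Psmd7 and Psmd11 stayed on the lower side. Proliferation markers were lower in DSSPAR than in DSS in 11 of 11 cases in the same arrays (median log2 ratio -0.32), and their part in these values was not tested.

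The beta subunits without active sites leaned the other way. Psmb3 had 1444 in DSSPAR and 1050 in DSS (1.38-fold higher), Psmb4 3031 and 2200 (1.38-fold higher) and Psmb1 1585 and 1276 (1.24-fold higher). Psmb2 was level, at 769 and 762. For Psmb3 and Psmb4 these gains rest on the brightest probe sets. A second probe set gave log2 ratios of 0.27 for Psmb3 and 0.11 for Psmb4, and with probe sets of unique type Psmb1 was at -0.03. All 6 ATPases lay above DSS (48.3% of all genes did), 5 of them by at most 1.10-fold and Psmc4 by 1.41-fold, and 3 of 6 did so after quantile normalization. Another bright Psmc2 probe set went the other way, at 865 in DSSPAR and 1142 in DSS, a log2 ratio of -0.40. Only Psmd7 passed 1.5-fold in either direction, where 3.21% of genes were higher and 6.1% lower by that much. Across the 31 constitutive subunits the ratio of DSSPAR to DSS had a Spearman correlation of -0.29 with gene span, against -0.10 over 11699 genes, and its part in the pattern was not tested.

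**Figure D3:**
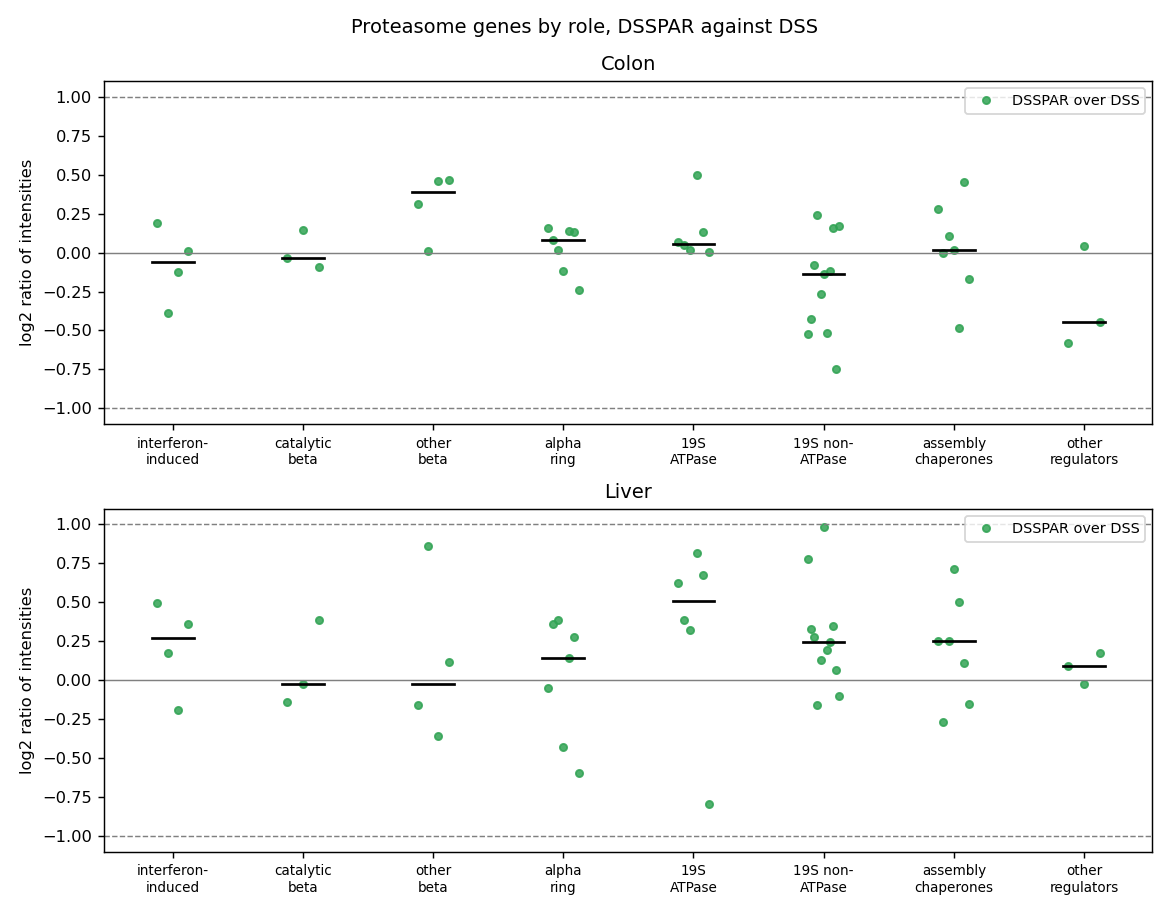
Log2 ratio of DSSPAR over DSS for each measured member, by role, in colon (top) and liver (bottom), with black bars at group medians and dashed lines at 2-fold. In colon the non-catalytic beta subunits lie at or above 0 and Psmd7 is lowest at -0.75, followed by Psme3 at -0.58, and in liver the 19S ATPases have the highest median.

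Among the remaining members in colon, the chaperones lay near the constitutive set, and of the other regulators Psme4 and Psmf1 lay closer to CON. The assembly chaperones, which put the rings and the base together, were higher in DSS than in CON in 6 of 7 cases. Among all genes 54.1% were higher. The chaperones had a median of 1.32-fold, with Psmg2 at 1.60-fold and Psmg3 at 0.991-fold. A second Psmg2 probe set of like brightness was level (log2 ratio -0.02). Psme3, the nuclear activator PA28 gamma, had 93.6 in DSSPAR, 140 in DSS and 82.5 in CON, so that DSS alone stood out, 1.70-fold above CON. Psme4, the PA200 activator, was 1.13-fold higher and Psmf1, the PI31 inhibitor, 1.11-fold higher in DSS than in CON, and Psmf1 was 1.22-fold lower in DSSPAR than in CON. The testis subunit Psma8 and the thymus subunit Psmb11 stayed under the floor in all colon arrays, at 2.15 and 2.14 in DSSPAR, 2.65 and 6.12 in DSS, and 5.45 and 5.68 in CON. In liver they lay close to the floor. Psmc3ip, a meiotic recombination factor, and Psme3ip1, a partner of PA28 gamma, fit the naming rule but are no subunits. They were 1.42-fold and 1.07-fold higher in the DSS colon than in CON.

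In liver the interferon-induced members lay nearer to CON than Psmb8 and Psmb9 did in colon. Psmb8 had 1600 in DSSPAR, 1415 in DSS and 1191 in CON. Psmb9 had 1832 in DSSPAR, 2091 in DSS and 1988 in CON, and Psme1 5181, 4030 and 4184 in the same arrays. Psmb10 had 2615 in DSSPAR, 1856 in DSS and 1609 in CON, 1.63-fold higher in DSSPAR than in CON, and was the furthest of the 4 from CON. None of the 4 was 2-fold off in any liver comparison. The shares of all genes at least 2-fold higher and lower were 4.73% and 4.2% of 13034 for DSS against CON, 2.8% and 4.23% of 12398 for DSSPAR against DSS, and 3.26% and 3.45% of 12721 for DSSPAR against CON. The median log2 ratio of the 4 was 0.14 for DSS over CON and 0.37 for DSSPAR over CON. These lay 0.25 and 0.32 above the constitutive medians. Against CON, DSSPAR gave ratios of 1.63 for Psmb10 over Psmb7, 1.58 for Psmb8 over Psmb5 and 1.01 for Psmb9 over Psmb6. On the log2 scale the first 2 were 0.71 and 0.66, past the spread of 0.48 between probe sets. For DSS against CON the ratios were 1.52, 1.26 and 1.13 in the same order of pairs. A second Psmb8 probe set went the other way in liver, at 58.8 in DSSPAR, 91.0 in DSS and 203 in CON, with both DSS-treated arrays under the floor.

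The constitutive subunits scattered in liver, and none was 2-fold off. In DSS 24 of 31 were lower than CON (51.4% of all genes were, and 48.6% were higher), with a median log2 ratio of -0.11 against -0.02 for all genes. With arrays centred on their medians 18 of 31 were higher than CON, so the side of CON depends on the scaling. In that setting the median log2 ratio was 0.12 for all genes and 0.04 for constitutive subunits. Relative to all genes, the constitutive median lay between -0.18 and -0.05 under the 8 settings, so it stayed below them. Those furthest down were Psmb2, at 1811 in DSS against 3242 in CON (1.79-fold lower), Psmd2, at 1867 against 3165 (1.70-fold lower), and Psmc1, an ATPase, at 1657 against 2530 (1.53-fold lower). The DSSPAR array gave 3292 for Psmb2, 3688 for Psmd2 and 2557 for Psmc1, so that DSSPAR read closer to CON than DSS did. These genes were named for their low DSS value, and the DSS array is shared by both comparisons, so a low value there lowers DSS over CON and raises DSSPAR over DSS together. In 18 of 31 constitutive subunits DSS was the lowest liver array, where this held for 35.1% of 13315 genes. At the 1.5-fold level 4 constitutive subunits were lower in DSS than in CON, where 14.9% of all genes were, so their share was near that of all genes, and 0 were higher, where 14.2% of all genes were.

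DSSPAR against DSS in liver had a median log2 ratio of 0.24 for constitutive subunits and -0.02 for all genes. Of 31 subunits 21 were higher in DSSPAR (48.5% of all genes were) and 10 were lower (51.5% were). At least 1.5-fold higher were 6 subunits (12.8% of genes were), and 2 were lower by that much (15% of genes were). The 19S ATPases stood highest among the roles, with a median of 1.42-fold. Psmc4 had 9515 in DSSPAR and 5395 in DSS (1.76-fold higher) and Psmc5 3087 and 1935 (1.60-fold higher), and both Psmc4 probe sets gave close values, at log2 ratios of 0.82 and 0.86. Psmd2 was 1.98-fold higher and Psmd1 1.71-fold higher in DSSPAR than in DSS. Not all subunits went this way: Psmc6, another ATPase, had 5618 in DSSPAR and 9753 in DSS (1.74-fold lower), and Psma7 was 1.51-fold lower. A second Psmc6 probe set gave a log2 ratio of -0.25, and the second Psma7 probe set -0.68. In the same arrays the ratio of the 3′ to the 5′ probe sets of Gapdh, a measure of how intact the RNA was, was 1.07 in DSSPAR, 1.54 in DSS and 1.21 in CON. The same ratio for beta-actin was 2.63 in DSSPAR, 3.53 in DSS and 3.55 in CON, where CON is level with DSS. The summed intensity of 8 hepatocyte markers was 445606, 677385 and 520700. Of these markers 7 of 8 were lower in DSSPAR than in DSS. Their part in these ratios was not tested. Against CON, the DSSPAR liver had 19 of 31 constitutive subunits higher and 12 lower, where 46.2% of all genes were higher and 53.8% lower, with a median log2 ratio of 0.04. With centring on the brighter probe sets, those above the floor, 15 of 31 were higher. The median was then -0.02, where that of all genes was -0.10. Psma6, an alpha ring subunit, had 12641 in DSSPAR, 10432 in DSS and 7656 in CON and was the 1 constitutive subunit at least 1.5-fold higher in DSSPAR than in CON, where 11.2% of all genes were. A second bright Psma6 probe set gave 8794 in DSSPAR, 7834 in DSS and 8321 in CON, a log2 ratio of 0.08 for DSSPAR over CON, so this gain rests on 1 probe set. At that level 0 were lower, where 13.4% of all genes were.

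Liver assembly chaperones were lower in DSS than in CON in 5 of 7 cases, where 51.4% of all genes were. Psmg3 had 1155 in DSSPAR, 1072 in DSS and 2091 in CON, so both DSS-treated groups lay under CON, whereas Psmg1 had 2318, 1416 and 2344, and DSS alone was low.

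Among genes that load MHC class I in colon, Nlrc5 and Tap1 lay as far above CON as Psmb8 and Psmb9 or farther, and the rest were nearer to CON. Nlrc5, the transactivator of MHC class I genes, had 112 in DSSPAR, 148 in DSS and 25.9 in CON, the last value just above the floor, and was 5.71-fold higher in DSS than in CON. Tap1, whose promoter window overlaps that of Psmb9, had 216 in DSSPAR, 248 in DSS and 65.6 in CON, 3.78-fold higher in DSS. Of 12 measured MHC class I loading genes all were higher in the DSS colon than in CON and 2 at least 2-fold, these 2 being Nlrc5 and Tap1. Among all genes 54.1% were higher and 5.18% at least 2-fold higher. The median log2 ratio of the 12 was 0.49 for DSS over CON, close to the 0.50 of the constitutive subunits. It was 0.28 for DSSPAR over CON, where 2 of 12 were lower than CON (47.4% of all genes were). The class I light chain gene B2m was 1.65-fold higher in DSS, at 5443 in DSSPAR, 5440 in DSS and 3305 in CON. Tap2 had 98.9 in DSSPAR, 158 in DSS and 105 in CON, so here DSS alone was high. Of 11 measured interferon signalling genes 8 were higher and 3 lower in DSS than in CON, where 54.1% of all genes were higher and 45.9% lower. Their median log2 ratio was 0.15, against 0.04 for all genes, and none was 2-fold off. Irf9 was 1.88-fold higher and Irf1, an activator of Psmb8 and Psmb9 transcription, 1.64-fold higher in DSS, while Irf2 was 1.68-fold lower, at 257 in DSSPAR, 208 in DSS and 349 in CON. Ifng, singled out after its values were seen, lay above the floor in 1 colon array, at 12.3 in DSSPAR, 27.5 in DSS and 5.34 in CON. In liver Tap1 had 734 in DSSPAR, 668 in DSS and 450 in CON, and Tapbp, the tapasin gene, 3454, 2057 and 1445.

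**Figure D4:**
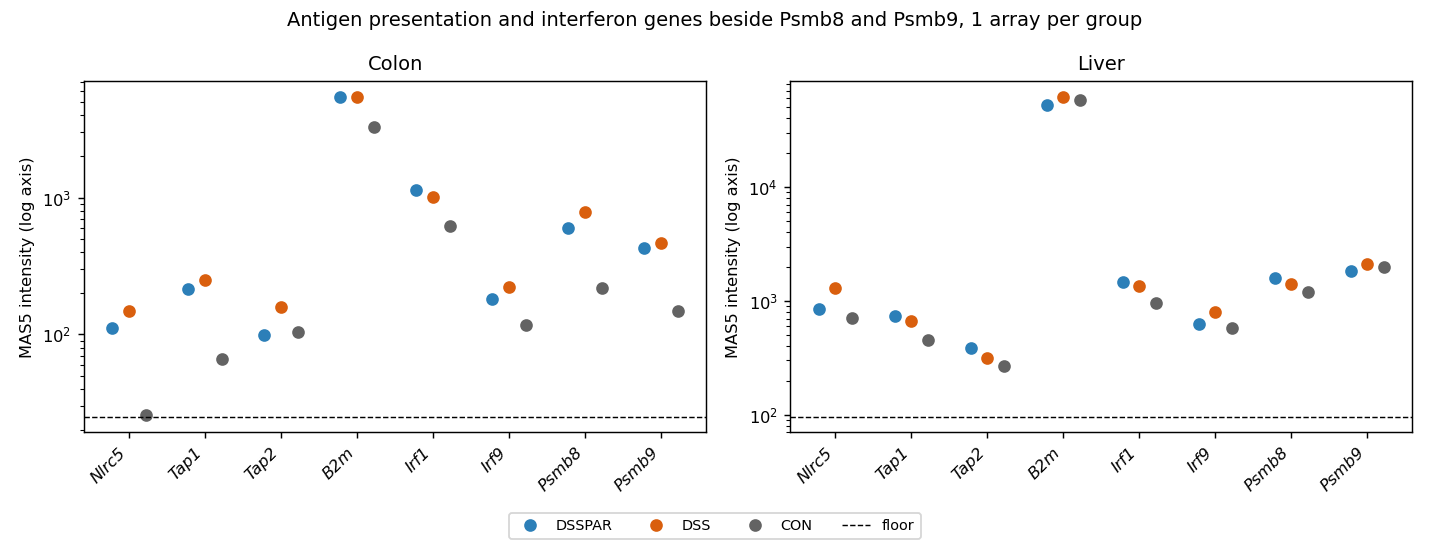
MAS5 intensity (log axis) of antigen presentation and interferon genes beside Psmb8 and Psmb9, in colon (left) and liver (right), 1 point per array, with the floor as a dashed line. In colon the DSS and DSSPAR points of Nlrc5 and Tap1 lie as far above CON as those of Psmb8 and Psmb9 or farther, and Tap2 is high in DSS alone.

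Leukocyte markers moved with Psmb8 and Psmb9 in colon. Of 18 such markers on the array 13 were measured, all 13 were higher in DSS than in CON and 9 at least 2-fold. Among all genes 54.1% were higher and 5.18% at least 2-fold higher. The 18 markers had a summed intensity of 6451 in DSSPAR, 7099 in DSS and 2158 in CON. Ptprc, the common leukocyte antigen, had 653 in DSSPAR, 677 in DSS and 257 in CON, 2.64-fold higher in DSS, whereas the T cell markers Cd3e, Cd4, Cd8a and Cd2 and the B cell marker Cd79a stayed under the floor in all colon arrays. Other T cell markers were measured: Cd3d had 72.4 in DSSPAR, 45.4 in DSS and 35.7 in CON, and Cd3g 42.4, 35.8 and 29.0, so both were higher in the DSS-treated groups than in CON. In RNA of whole tissue, more cells of a type and more RNA per cell cannot be told apart. The part of leukocytes in the Psmb8 and Psmb9 values was not tested. Proliferation markers were higher in the DSS colon than in CON in 11 of 11 cases (8 at least 2-fold), where 54.1% and 5.18% of all genes were. Their part in the broad constitutive shift was not tested. Exocrine pancreas markers summed to 197 in DSSPAR, 3271 in DSS and 218 in CON in colon, beside every DSS value there, and their part was not tested either. In liver, leukocyte markers summed to 24483 in DSSPAR, 23932 in DSS and 14823 in CON, beside interferon-induced members of which none was 2-fold off.

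Proteasome genes outside the naming rule had a median near that of the constitutive set in the DSS colon. Pomp, the chaperone of the core particle, had 1305 in DSSPAR, 1249 in DSS and 785 in CON in colon, and Uchl5, a deubiquitinase bound to the 19S particle, 309, 380 and 230. All 5 such genes measured were higher in the DSS colon than in CON (54.1% of all genes were), by a median of 1.47-fold, with none at least 2-fold. Ecpas was near level, at a log2 ratio of 0.03 for DSS over CON and -0.15 for DSSPAR over CON. Nfe2l1 and Nfe2l2 encode transcription factors that drive proteasome genes when protein breakdown or redox balance is disturbed. In colon, Nfe2l1 had 322 in DSSPAR, 307 in DSS and 335 in CON, and Nfe2l2 1090, 1034 and 1392, so neither was higher in the DSS-treated colons than in CON. Of the 7 genes on their list, 4 were higher and 3 lower in DSS than in CON, with a median log2 ratio of 0.04. Keap1 had the lowest DSSPAR over DSS ratio of that list in colon, at -1.01 on the log2 scale. At least 2-fold lower there were 1.24% of all genes. In liver, Maff had the list's highest DSS over CON ratio, at 1.76, where 4.73% of all genes were at least 2-fold higher. The part of these genes in the proteasome values was not tested. Vcp, the unfoldase that hands substrates to the proteasome, read in liver like Psmd2, at 9962 in DSSPAR, 4593 in DSS and 6554 in CON, and was 2.17-fold higher in DSSPAR than in DSS. Of 8 measured ubiquitin and shuttle genes in liver, 6 were higher in DSSPAR than in DSS, 1 of them at least 2-fold. Among all genes 48.5% were higher and 2.8% at least 2-fold higher. In colon 6 of the 8 were higher in DSS than in CON, with a median log2 ratio of 0.11.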

How the data were processed

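The deposited values are linear MAS5 intensities for each probe set, per the submitters' processing notes. The MAS5 version and its scaling target: not given in the sources used here. RNA of 7 mice was pooled per group and labelled from 15 µg, per the labels' protocols. The 6 columns were matched to samples by their labels, and 0 were left unused. Of 45101 probe sets, 34958 carried 1 gene symbol, 932 several and 9211 were not listed in the platform annotation. All 49 member symbols matched the gene table by Entrez identifier.

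A gene was represented by its brightest probe set over a tissue's 3 arrays. The floor was the 50th percentile of those arrays, and a gene needed 1 of 2 arrays above it. Log2 ratios were formed for 3 comparisons per tissue. Each group has a single array, which allows no test, and the number of arrays limits the precision. Members and gene lists were chosen with earlier results of these data known. All members were described, and of other lists up to 4 genes with the largest ratios per comparison, followed where useful in the other comparisons and tissue, and Ifng was added after its values were seen. The calculation of ratios was checked on simulated intensities with known fold changes. Alternatives were a floor at the 75th percentile or none, 3 other scalings, the mean over probe sets, probe sets of unique type (identifiers not ending in _s_at, _x_at or _a_at), and a 3-fold threshold. A 1.5-fold threshold was chosen after seeing the data. Python 3.11.15, NumPy 2.4.6, pandas 2.3.3 and matplotlib 3.10.9 were used.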

Additional observations from a re-analysis of the deposited data

Results flagged for a closer look

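The constitutive subunits had medians on opposite sides of CON in the 2 tissues: DSS over CON was 0.50 in colon and -0.11 in liver on the log2 scale, a difference of 0.61, which was not tested. Of 31 subunits 23 were higher in the DSS colon and lower in the DSS liver, where 25.2% of 10766 genes were. With arrays centred on their medians the liver median was 0.04, where that of all genes was 0.12. The interferon-induced members had DSSPAR over DSS medians of -0.06 in colon and 0.27 in liver, a difference of -0.33 that was not tested either. The sign of this colon median depends on the processing. It was 0.14 with arrays centred on their medians and 0.03 with centring on probe sets above the floor. The medians of all genes there were 0.18 and 0.07, so the interferon-induced median stayed below them. With the mean over probe sets the interferon-induced median was 0.06, and with probe sets of unique type 0.01, where those of all genes were -0.05 and -0.03.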

How the results depend on the processing

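Counts past 2-fold and differences between the 2 medians were recomputed for each comparison, and 24 of these values moved, as given here. The difference between medians for DSSPAR against DSS changed sign with the mean over probe sets, at 0.04 in colon and -0.01 in liver. The constitutive median of DSS over CON in liver was 0.04 with arrays centred on their medians, against -0.11. All genes had a median of 0.12 in that setting, against -0.02. Psmc4 ranged between -0.35 and 0.56 in colon DSS over CON. In colon DSS against CON, the difference between the interferon-induced and the constitutive median was 0.32 with probe sets of unique type, where Psmb8 has no probe set, and 1 of 3 interferon-induced members then passed 2-fold. There, 0 constitutive subunits passed 2-fold upward with centring on the brighter probe sets (those above the floor), with quantile normalization, with the mean over probe sets or at 3-fold, and 3 did so with probe sets of unique type. At 1.5-fold 4 interferon-induced and 10 constitutive members passed. In colon DSSPAR against CON, 6 constitutive subunits passed upward with arrays centred on their medians, 1 with the mean over probe sets, 1 with unique probe sets and 10 at 1.5-fold, and 0 interferon-induced members passed 3-fold. In colon DSSPAR against DSS 1 constitutive subunit was lower at 1.5-fold. In liver, 1 constitutive subunit was lower in DSS than in CON with unique probe sets and 4 at 1.5-fold. For DSSPAR against DSS, 2 were higher with arrays centred on their medians, and 6 higher and 2 lower at 1.5-fold. For DSSPAR against CON, 1 interferon-induced and 1 constitutive member were higher with arrays centred on their medians, and the same numbers at 1.5-fold. The cause was not tested where the setting does not itself show it. Centring on medians moved the median of all genes to between 0.12 and 0.30 log2. Relative to all genes, the constitutive median of DSS over CON in colon lay between 0.38 and 0.51 under the 8 settings. No paired analysis was possible because each group has 1 array per tissue, and leaving out an array leaves no comparison.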
